A study of Rattus norvegicus with 8 samples.

Results

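The genes of 10 proteins that restrain the MAP kinase cascade were followed in the dentate gyrus (DG) of rats that had undergone status epilepticus (SE). They were 7 genes of dual-specificity phosphatases (Dusp1, Dusp2, Dusp4, Dusp5, Dusp6, Dusp10 and Dusp14) and the 3 Sprouty genes Spry1, Spry2 and Spry4, taken as the non-control spots of the array that carry one of these names. Of the 10 names, 9 were found, on 11 of 43379 non-control spots, and all 9 genes passed the filter on dim spots, among 21372 genes quantified of 35250 names on the array. All 8 rats were adult ovariectomized Sprague-Dawley females of 150 to 200 g with SE induced by kainic acid. The 4 oil-treated rats are called COS and the 4 rats with estradiol replacement (E2, labelled EB) are called CES. The sample records give 4 doses of 2 µg of estradiol at intervals of 24 h, with injections on either side of SE, and 16 mg/kg of kainic acid with pentobarbital after 5 h. The methods of the study differ from these records on the kainic acid dose, the drug that ended SE and the day of the injections, and place tissue collection within hours of seizure onset in one passage and a day after SE in another, so the time between SE and collection is not settled here. Rats without SE were not analysed here, so the levels below carry no baseline.

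Growth factor receptors and synaptic activity pass their signal through Ras, Raf and the MAP kinase kinases to the MAP kinases ERK, JNK and p38. The dual-specificity phosphatases remove the activating phosphates from the MAP kinases, each with its own preference and place in the cell, and many are transcribed in response to the kinase they switch off. Sprouty proteins act upstream, between the receptor and Ras or Raf, and are likewise products of ERK signalling, so that transcripts of both families are used as a readout of recent pathway activity. In granule cells, the principal neurons of the DG, seizures are a known stimulus of such immediate early genes.

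All 9 quantified genes had the lower mean in CES, as did 68.5% of all genes, and 8 of the 9 passed an adjusted p of 0.05 (limma with Benjamini-Hochberg adjustment over all genes). Over all genes, 28.3% were called lower. Of the 7 that were well above background in every rat 6 were called lower, against 32.2% of the genes so measured. None of the 9 was called higher, by the adjusted or by the unadjusted p, against 5.79% of all genes. Spry1 (4.93-fold) and Dusp1 (4.03-fold) were lower in CES by the widest margins, and Dusp6 was the gene that did not pass. For 6 of the 9 genes, every CES rat lay below every COS rat, a pattern seen in 19.8% of all genes, and none had every CES rat above, as 1.61% of all genes did. The count of 8 fell to 4 without COS replicate 3 (Dusp1, Dusp4, Spry1 and Spry4), the rat with the highest level of 6 of the genes in its group. Calls over all genes were also fewest without that rat, among the rats left out in turn, as given with the processing alternatives. Every difference but that of Dusp6 kept its sign under each of the 22 alternatives to the processing that could test it. The median CES minus COS difference over the 9 genes was -1.12 on the log2 scale, beside -0.25 over all genes, or -0.87 relative to all genes. All log2 levels below are relative to the median valid spot of a rat's own channel, so that 0 is a spot of median brightness, and compare rats for 1 gene, never one gene with another.

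**Figure D1:**
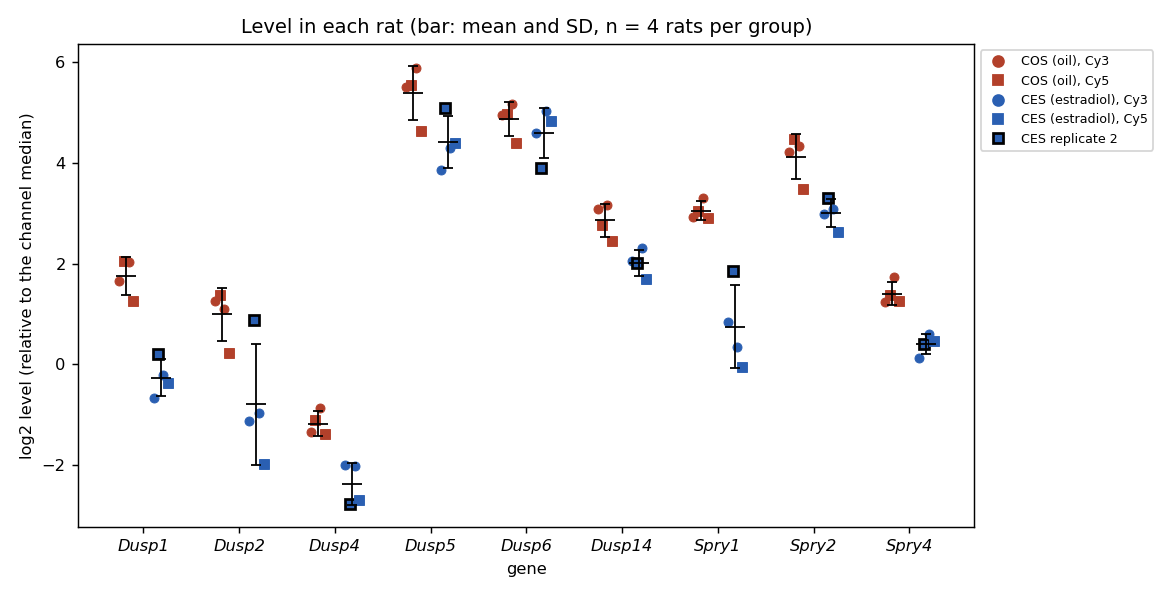
Level of each quantified gene in each rat, on a log2 scale relative to the median valid spot of the channel (y axis), by gene (x axis); circles are rats labelled with Cy3, squares rats labelled with Cy5, bars the mean and SD of 4 rats. The groups are apart for Dusp1, Dusp4, Dusp14, Spry1, Spry2 and Spry4, and overlap for Dusp2, Dusp5 and Dusp6.

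The arrays set some conditions on these values. Each array held a pair of rats of the same group, one in Cy3 (replicates 1 and 3) and the other in Cy5 (replicates 2 and 4), and the 4 arrays shared a slide, so each array belongs to a single group. Between 30690 and 38553 spots were valid per rat. Within each dye, both CES rats had fewer valid spots than both COS rats. The numbers were 33483 and 35352 against 37716 and 38553 in Cy3, and 31826 and 30690 against 34759 and 32381 in Cy5. Each level is relative to the median of a rat's own valid spots, so the choice of valid spots enters every difference. Scaled instead over spots valid in all 8 rats, the median difference of all genes was 0.15 and that of Dusp1 -1.61. Under loess normalization the median difference of all genes was 0.05, the calls over all genes went from 6054 lower and 1238 higher to 1896 lower and 3044 higher, and 6 of the 9 genes remained called lower where 8.87% of all genes were. The labelled tissue was checked against cell type markers. Of 8 granule cell genes 5 were quantified, without Prox1, the defining one. The log2 of their levels added on the linear scale, called the summed level below, was 3.71 to 4.54 in COS and 3.35 to 3.79 in CES. Dsp and C1ql2 were called lower, while Calb1 (-0.28), Pdzd2 (-0.06) and Plk5 (0.52) were not called. The median of the 5 was -0.02 relative to all genes. Dsp was dim, and 3 COS rats and 2 CES rats had it well above background. Of 5 markers of CA pyramidal cells, which lie outside the DG, 4 were called higher (led by Pou3f1, 2.23), beside 5.79% of all genes. Their summed level was 3.44 to 4.06 in COS and 3.85 to 5.05 in CES. Of the 4, Fibcd1 was dim, as 0 COS rats and 2 CES rats had it well above background. The study lists Grik4, another of the 4, among receptor genes preserved by E2. That listing comes from the same dissected tissue, and whether Grik4 marks tissue outside the DG was not tested. Microglial markers had 3 of 7 called lower (led by Cd68, -2.19) and 1 higher (P2ry12, 0.93), at a summed level of 5.08 to 5.68 in COS and 4.66 to 5.15 in CES. Neuronal markers had 1 of 6 called lower and 1 higher, astrocyte markers 1 and 2 of 6, and endothelial markers 2 and 1 of 5, while those of oligodendrocytes (6 quantified), leukocytes (2 of 9) and choroid plexus (5 of 6) had 0 called by limma, and 0 of these 13 at an unadjusted p under 0.05. The part of these markers in the differences below was not tested, and in such bulk tissue fewer cells of a type and less RNA per cell cannot be told apart.

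Since these genes moved in one direction, their upstream sequence was read for motifs of the factors that act downstream of MAP kinases and of the estrogen receptor. RefSeq (GRCr8) gave 12 promoter windows, from 250 bases before to 50 after a transcription start, which held at least 1 window for each of the 10 names but Dusp4. Both strands were searched for the cyclic AMP response element (CRE, TGACGTCA), its shorter form TGACG (which the CRE contains), the AP-1 site TGANTCA, the Egr site GCGNGGGCG, the Ets site CCGGAAGT, the CArG box of serum response factor and the palindromic estrogen response element. The 250 bases before the start are printed for Dusp1, the window with a complete CRE, for Dusp5, with its CArG boxes, for Spry1, with the widest difference, and for Dusp6, the gene not called. Capitals mark matches to any of these motifs. The windows are chr10:17184603-17184852, chr1:262543524-262543773, chr2:122485097-122485346 and chr7:35979354-35979603, all on the plus strand of GRCr8.
Dusp1: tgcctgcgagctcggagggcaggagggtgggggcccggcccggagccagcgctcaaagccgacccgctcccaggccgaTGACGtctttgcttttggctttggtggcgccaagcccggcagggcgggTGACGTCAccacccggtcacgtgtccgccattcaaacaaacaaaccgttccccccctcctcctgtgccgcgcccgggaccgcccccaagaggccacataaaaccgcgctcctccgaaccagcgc
Dusp5: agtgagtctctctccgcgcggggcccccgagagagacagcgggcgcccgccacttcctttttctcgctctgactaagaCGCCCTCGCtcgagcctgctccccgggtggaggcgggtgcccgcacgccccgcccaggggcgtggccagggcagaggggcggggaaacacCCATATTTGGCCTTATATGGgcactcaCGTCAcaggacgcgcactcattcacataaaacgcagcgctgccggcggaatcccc
Spry1: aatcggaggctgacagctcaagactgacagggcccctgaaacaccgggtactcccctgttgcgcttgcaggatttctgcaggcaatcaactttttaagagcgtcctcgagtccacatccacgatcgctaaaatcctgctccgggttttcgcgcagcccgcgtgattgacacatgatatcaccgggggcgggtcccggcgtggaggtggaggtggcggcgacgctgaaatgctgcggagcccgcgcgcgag
Dusp6: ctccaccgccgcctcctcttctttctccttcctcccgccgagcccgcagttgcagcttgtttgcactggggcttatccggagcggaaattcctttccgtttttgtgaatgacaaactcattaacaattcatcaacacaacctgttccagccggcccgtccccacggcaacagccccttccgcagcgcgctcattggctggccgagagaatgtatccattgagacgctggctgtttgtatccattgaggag
Of the 9 genes with a window, Dusp1 was the single one with a complete CRE, from position -124 to -117 relative to the start, a match found in 1.83% of 33469 rat promoters. Dusp5 held 2 adjoining CArG boxes, from position -82 to -63, where 1.64% of promoters held any. Egr sites were found in Dusp2, Dusp5 and Spry2 (4.98% of promoters), the AP-1 site in Dusp14 (7.33%) and TGACG in Dusp1, Dusp2, Dusp5, Dusp14 and Spry2 (21.2%). Spry1, Spry4, Dusp6 and Dusp10 held none of the motifs in these windows, and neither the Ets site (3.81% of promoters) nor the estrogen response element (0.0269%) was found in any of the 12. A match describes letters and not binding, and the windows with and without them include called genes.

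Dusp1, Dusp2, Dusp4 and Dusp5 encode the inducible phosphatases of the nucleus, and all 4 were called lower in CES. Dusp1, which acts on p38, JNK and ERK and is a classical immediate early gene, had log2 levels of 1.65, 2.04, 2.04 and 1.26 in COS replicates 1 to 4 and of -0.67, 0.21, -0.22 and -0.37 in CES replicates 1 to 4. Every CES rat lay more than a log2 unit below the lowest COS rat. The means were 1.75 ± 0.38 and -0.26 ± 0.37 (SD, n = 4 each), a difference of -2.01 with a 95% interval of -2.56 to -1.46 (adjusted p = 0.0032 by limma). It was -2.29 among the Cy3 rats and -1.73 among the Cy5 rats (2 against 2 in each dye). The probe lies at chr10:16944342-16944661 (rn4).

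Dusp2, a phosphatase of ERK best known from activated lymphocytes, was spread widely in CES. Its log2 level was 1.25, 1.38, 1.09 and 0.23 in COS and -1.13, 0.87, -0.96 and -1.97 in CES. CES replicate 2 lay inside the COS range, while the other CES rats were below all COS rats. The difference was -1.79 (SE 0.53, adjusted p = 0.027 by limma), and -2.44 without CES replicate 2 (adjusted p = 9.9e-05). This probe (chr3:114839775-114839834, rn4) was well above background in all COS rats but in 2 of the 4 CES rats, and the call was kept under 10 of 21 alternatives. Leaving out COS replicate 1, 2 or 3 or CES replicate 1 gave adjusted p-values of 0.076, 0.071, 0.14 and 0.11.

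Dusp4, a nuclear phosphatase of ERK and JNK, gave a dim signal in these samples. COS rats had log2 levels of -1.35, -1.10, -0.87 and -1.39, and CES rats of -1.99, -2.78, -2.02 and -2.69. The groups did not overlap, at a difference of -1.19 (SE 0.19, adjusted p = 0.0042 by limma), but the probe (chr16:61111773-61119563, rn4) was well above background in 4 of the 8 rats, all labelled with Cy5. Unlike the other inducible phosphatases, it was lowest in CES replicate 2. The difference was -0.53 with normexp background correction, at an adjusted p of 0.51.

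Dusp5, a nuclear phosphatase specific to ERK, had log2 levels of 5.51, 5.55, 5.88 and 4.63 in COS and of 3.86, 5.10, 4.29 and 4.40 in CES. COS replicate 4 was low for its group and CES replicate 2 high, and these placed the groups in overlap. The difference was -0.98 with a 95% interval of -1.69 to -0.27 (adjusted p = 0.040 by limma). It was uneven between the dyes, at -1.62 among the Cy3 rats and -0.34 among the Cy5 rats, and the call was kept under 11 of 22 alternatives. Without CES replicate 2 it was -1.24 (adjusted p = 0.0057), and without COS replicate 1, 2 or 3 or CES replicate 1 the adjusted p was 0.11, 0.090, 0.22 and 0.16. The Dusp5 probe lies at chr1:259767436-259767495 (rn4).

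**Figure D2:**
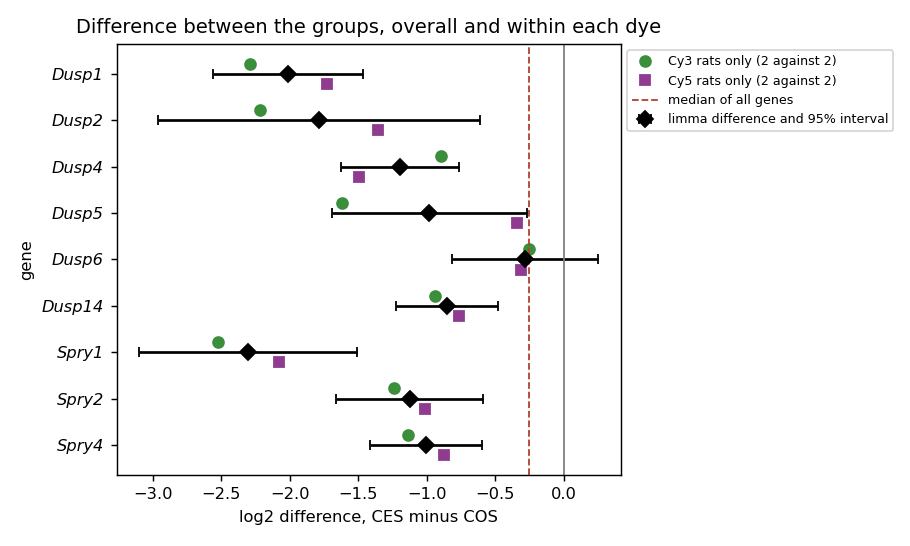
CES minus COS difference of each gene (x axis, log2) with its 95% interval from limma (diamonds), and the difference among the Cy3 rats (circles) and the Cy5 rats (squares) alone, 2 against 2. All 9 genes were lower in CES within both dyes, Dusp5 unevenly so, and Dusp6 lay at the median of all genes (dashed line).

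Dusp6, the cytoplasmic phosphatase of ERK, was not called. Levels of 4.96, 4.97, 5.17 and 4.39 in COS and of 4.59, 3.89, 5.03 and 4.84 in CES overlapped over most of their range. CES replicate 2, which was the highest CES rat for Dusp2, Dusp5 and Spry1, was here the lowest of all rats. The difference was -0.28 with a 95% interval of -0.82 to 0.25 (adjusted p = 0.39 by limma), or -0.03 relative to all genes, and its sign turned under loess normalization (0.0057), when channels were scaled over jointly valid spots (0.12) and in the deposited log2 table (0.11). The interval leaves room for a fall of up to 0.82, and whether Dusp6 differed from the other phosphatases was not tested. Its probe lies at chr7:36896854-36896913 (rn4).

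Dusp14, a small atypical phosphatase without the kinase-docking region of the classical ones, was lower in every CES rat. Its log2 level was 3.09, 2.77, 3.16 and 2.44 in COS and 2.06, 2.00, 2.30 and 1.69 in CES. The groups were close but separate, at a difference of -0.85 with an SE of 0.17 (adjusted p = 0.0064 by limma), -0.94 in Cy3 and -0.76 in Cy5. Without COS replicate 3 the adjusted p was 0.055. The probe lies at chr10:72336588-72336647 (rn4).

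Dusp10, which acts on JNK and p38, has no spot of that name on the array. A single probe carries the gene in its description under another name (chr13:100050617-100050676, rn4). It was valid in 0 of 4 COS rats and 2 of 4 CES rats and well above background in none, so no fold is given.

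The 3 Sprouty genes were lower in every CES rat than in any COS rat. Spry1, an inhibitor of growth factor signalling through Ras, had log2 levels of 2.93, 3.05, 3.31 and 2.91 in COS and of 0.84, 1.85, 0.35 and -0.05 in CES. The COS rats lay close together and the CES rats were the more scattered, with replicate 2 nearest to COS. The means were 3.05 ± 0.19 and 0.75 ± 0.82 (SD, n = 4 each), and the difference was -2.30 with a 95% interval of -3.10 to -1.51 (adjusted p = 0.0040 by limma). Without CES replicate 2 it was -2.73 (adjusted p = 1.1e-05). Of its 2 probes, the one well above background in all rats (chr2:124217774-124217833, rn4) differed by -2.36 and the dimmer (chr2:124216505-124216564, rn4), well above background in 3 of 8 rats, by -1.10 (adjusted p = 0.012 over all probes).

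Spry2, the family member most studied as a brake on ERK in development, had log2 levels of 4.21, 4.47, 4.34 and 3.48 in COS and of 2.98, 3.30, 3.09 and 2.63 in CES. The gap between the groups was narrow, between COS replicate 4 and CES replicate 2. The difference was -1.12 (SE 0.24, adjusted p = 0.0085 by limma), a 2.18-fold lower level in CES, and -1.03 without COS replicate 3 (adjusted p = 0.070), from a probe at chr15:90009823-90009882 (rn4).

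Spry4, which acts on Ras and Raf in the same manner, was the most even gene of the family. Its log2 levels were 1.25, 1.37, 1.74 and 1.26 in COS and 0.13, 0.41, 0.59 and 0.47 in CES. The level was 2.01-fold lower in CES, with a 95% interval of the log2 difference from -1.41 to -0.59 (adjusted p = 0.0054 by limma), and the call was kept with each rat left out in turn. The level rests on the probe at chr18:31532750-31532809 (rn4), since the other, at chr18:31536477-31536536, was well above background in no rat.

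Across rats, the genes shared part of their scatter. COS replicate 4 was the lowest COS rat for 8 of the 9 genes and COS replicate 3 the highest for 6, whereas CES replicate 2 was the highest CES rat for 5. CES replicate 2 exceeded the mean of the other CES rats by 2.22 for Dusp2, 1.47 for Spry1, 0.91 for Dusp5 and 0.63 for Dusp1, and lay below it by values of -0.54 for Dusp4 and -0.93 for Dusp6. With that rat left out, every remaining CES rat was below every COS rat for 8 of the 9 genes, compared with 22.6% of all genes.

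**Figure D3:**
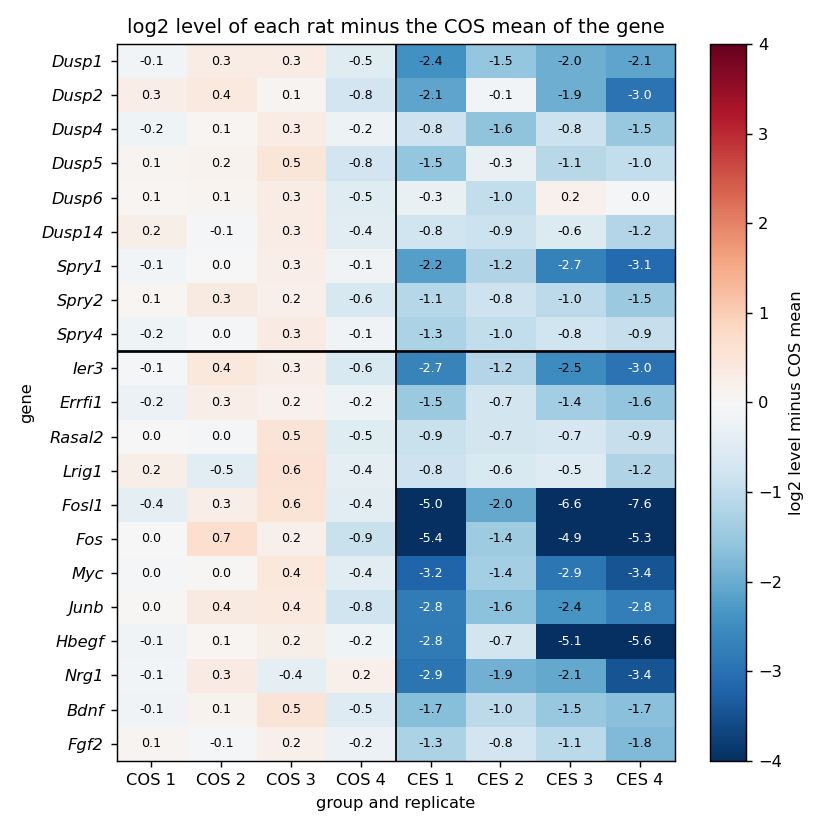
Log2 level of each rat minus the COS mean of the gene (colour and printed number), with rats in columns and genes in rows; above the line the genes described here, below it named feedback inhibitors, ERK-responsive genes and growth factor ligands. CES replicate 2 was paler than the other CES rats for Dusp2, Dusp5, Spry1, Fos, Fosl1 and Hbegf.

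Genes that answer to ERK were lower in the same rats. Of 17 such transcription factors and output genes 15 were quantified, 11 were called lower and 1 higher, with a median of -1.24 relative to all genes, where 28.3% of all genes were called lower. The counts were 8 and 1 under loess normalization, 7 and 0 with normexp, and 5 and 0 without COS replicate 3. Fos, a subunit of AP-1, had log2 levels of 5.18, 5.82, 5.35 and 4.27 in COS and of -0.22, 3.73, 0.25 and -0.15 in CES. CES replicate 2 again stood between the groups, as it did for Fosl1, another AP-1 subunit. Fosl1 differed by -5.29 (SE 0.96, adjusted p = 0.0053), though it was well above background in 3 of the 4 CES rats, and Fos by -4.25 (SE 0.75, adjusted p = 0.0050), and without COS replicate 3 these adjusted p-values were 0.0504 and 0.0544. The growth regulator Myc differed by -2.73 and the AP-1 subunit Junb by -2.39. Etv1 was the gene of the list called higher. Chosen after their values were seen, the Ets factors Etv4 and Etv5, which like Dusp6 are known targets of growth factor signalling through ERK, differed by -0.45 (adjusted p = 0.10) and -0.35 (adjusted p = 0.093) and were not called, and Etv5 turned sign under scalings given with the processing alternatives.

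Ligands that feed the cascade were also lower. Of 14 receptor tyrosine kinase ligands 13 were quantified, 9 were called lower and 0 higher, at a median of -0.37 relative to all genes, where 28.3% of all genes were called lower. The 9 became 4 under loess normalization, 3 when channels were scaled over jointly valid spots, 2 with normexp and 3 without COS replicate 3. Hbegf, a ligand of the EGF receptor, differed by -3.57 (SE 0.88, adjusted p = 0.014), and had log2 levels of 4.26, 4.46, 4.62 and 4.23 in COS and of 1.56, 3.66, -0.75 and -1.18 in CES, with 3 CES rats well above background. Its adjusted p was 0.079 without COS replicate 3 and 0.052 under loess normalization. Nrg1, a ligand of ErbB receptors, differed by -2.59, the neurotrophin Bdnf by -1.48 and Fgf2 by -1.22. The spread of Hbegf in CES repeated that of Spry1 and Dusp2, with replicate 2 the highest.

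Among 16 further feedback inhibitors of receptors and ERK 12 were quantified, and 7 were called lower and 0 higher. The counts were 2 and 0 under loess normalization or without COS replicate 3. Of all genes, 28.3% were called lower, and 8.87% under loess normalization. Ier3, an ERK substrate that is known to prolong ERK activity rather than to end it, differed by -2.33 (SE 0.38, adjusted p = 0.0042), and Errfi1, the inducible inhibitor of the EGF receptor, by -1.30 (SE 0.22, adjusted p = 0.0047). Rasal2, a Ras GTPase-activating protein, and Lrig1, which promotes receptor degradation, differed by -0.80 and -0.79.

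The phosphatases outside the 10 genes did not move together. Of all genes, 28.3% were called lower and 5.79% higher, or 8.87% and 14.2% under loess normalization. Of 8 other MAP kinase phosphatases, all quantified, 2 were called lower and 2 higher, with a median of 0.36 relative to all genes, with 1 lower and 4 higher under loess normalization and 0 and 0 without COS replicate 3. Dusp16, which acts on JNK and p38, differed by -1.21 (SE 0.22, adjusted p = 0.0052), and the tyrosine phosphatase Ptpn7 by -1.71 (SE 0.40, adjusted p = 0.011). Dusp9, a cytoplasmic ERK phosphatase, and Dusp8, a JNK and p38 phosphatase abundant in brain, were higher by 0.81 (adjusted p = 0.025) and 0.65 (adjusted p = 0.047). Among 14 more distant dual-specificity phosphatases 8 were quantified, with Dusp11 called lower (-0.83) and Dusp15 (1.22) and Dusp19 (0.60) called higher.

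Of the 10 MAP kinases themselves 9 were quantified and 2 were called lower, beside 28.3% of all genes. These were Mapk8 (a JNK, -0.66) and Mapk14 (p38 alpha, -0.57). Under loess normalization 0 were called lower and 1 higher, and without COS replicate 3 0 were called in either direction. Mapk3, an ERK gene named for its place as a substrate and after its values were seen, differed by -0.27 (adjusted p = 0.20) and turned sign under other scalings. Of 7 MAP kinase kinases 6 were quantified. Map2k3 and Map2k6, both activators of p38, went opposite ways, by -2.06 (SE 0.33, adjusted p = 0.0041) and 1.93 (SE 0.18, adjusted p = 0.0026). Every CES rat was below every COS rat for Map2k3 and above for Map2k6. Of 11 genes of the Ras and Raf step 10 were quantified, with 3 called lower and 1 higher, beside 28.3% and 5.79% of all genes. Those called included the adaptors Shc1 (-1.75) and Grb2 (-0.81), both lower, and the scaffold Ksr1 (0.82), higher. The counts were 1 and 2 under loess normalization, and 0 and 1 without COS replicate 3.

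**Figure D4:**
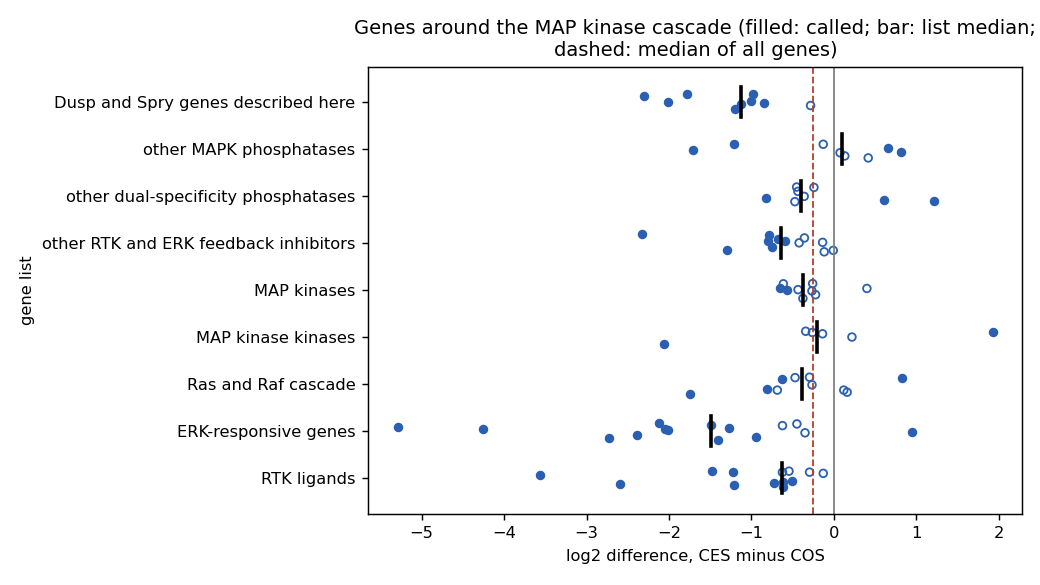
CES minus COS difference (x axis, log2) of every quantified gene of each list around the cascade (y axis); filled points are genes called at an adjusted p under 0.05, bars the list medians and the dashed line the median of all genes, -0.25. The genes described here and the ERK-responsive genes lie to the left, whereas the other MAPK phosphatases spread to both sides.

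The 5 genes whose levels followed Spry1 most closely over the 8 rats, among 13703 other genes well above background in every rat, were Arpp21, Sigirr, Klf6, Plod3 and Cars1, with Pearson's r of 0.994 to 0.995. The rats share groups, dyes and arrays, so these values describe likeness of pattern. Arpp21, a cyclic AMP-regulated phosphoprotein of neurons, had log2 levels of 5.48, 5.78, 5.73 and 5.46 in COS and of 3.44, 4.57, 3.33 and 2.84 in CES. The same order of the CES rats, replicate 2 highest and replicate 4 lowest, held for Spry1.

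**Figure D5:**
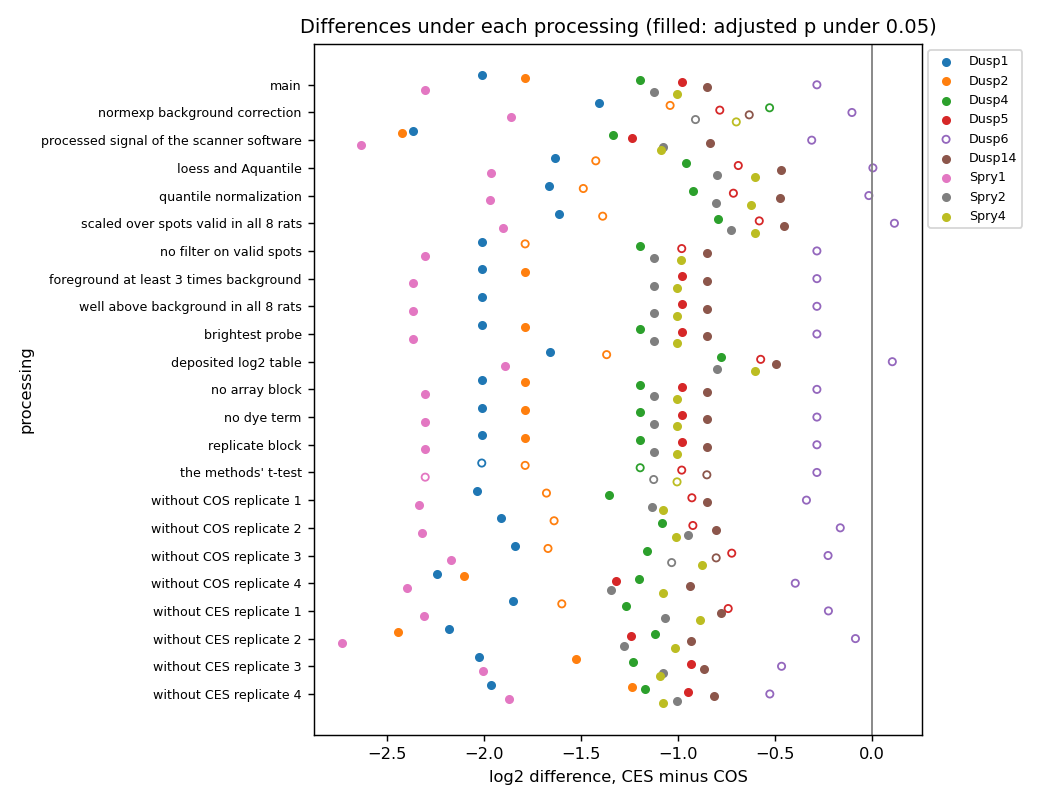
CES minus COS difference (x axis, log2) of each gene under each way of processing the data (y axis); filled points had an adjusted p under 0.05. Spry1 and Dusp1 stayed farthest left under most settings and Dusp6 crossed 0 under 3 of them.

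Dusp1 and Spry1 were called under 21 of the 22 alternatives, all but the methods' t-test after adjustment, Spry4 under 20, and Dusp14 and Spry2 under 19. Dusp4 was called under 18 of the 20 alternatives that could test it.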

How the data were processed

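Total RNA from the DG of 8 rats was labelled with Cy3 or Cy5 and hybridized to 4 arrays. The authors deposited scanner files (Agilent Feature Extraction 10.7.3.1) with the intensity of every spot and of its local background, not normalized, a software-processed intensity and marks (another kind of value, whether a spot is well above background), and a log2 table whose columns equal the deposited median signals minus background, centred on a median of 0.

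Spots with a foreground at least 2 times background in all 8 rats were kept (27642), mean signal minus background median was divided by the channel's median valid spot, averaged over a gene's spots and taken to log2. The median standard error of a difference was 0.20 per gene, from the spread between 4 rats a group. Probes were named by RefSeq accession (17512 of 41012) or otherwise by the file. The groups were compared in limma 3.58.1 (R 4.3.3, statmod 1.5.0), two-sided, with dye as a fixed term and array as a random block, checked on simulated data. Nothing was saturated among the spots of these genes. Tables and plots were made in Python 3.11.15 (pandas 2.3.3, matplotlib 3.10.9).

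Groups and replicate numbers came from the sample records. The genes, the lists around them and the tests were chosen with earlier results of these data known. Named genes are the 10 genes, up to 4 called genes of each list with the largest differences, and the 5 genes most correlated with Spry1, the gene with the largest difference among those well above background in all rats. Some genes that this rule names are not reported here. Rats that share a number share a dye. Their deviations from the group means correlated at 0.21 to 0.34, and at -0.28 to 0.08 once the mean dye effect was removed, so the numbers carry the dye, and the pairing was fitted as an alternative. The 22 alternatives were normexp background correction (offset 50), the processed intensity, loess with Aquantile, quantile normalization, scaling over spots valid in all 8 rats, no filter, a foreground of 3 times background, spots well above background, the brightest probe, the deposited log2 table, a fit without the array, one without the dye, the replicate block, the methods' t-test and leaving out each rat. In the methods' t-test, the unequal-variance test of the study was adjusted by Benjamini-Hochberg over all genes, a step the study does not describe. The fold cut-off that the study set for each gene, and its correction for redundant spots, were not applied. The count without CES replicate 2 of genes whose groups do not overlap was chosen after seeing the data.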

Additional observations from a re-analysis of the deposited data

How the results depend on the processing

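Of 195 values of the 9 genes under the alternatives, 158 kept their direction and side of the threshold, 34 kept the direction and lost the call, and 3 reversed, all of them Dusp6: 0.0057 (loess), 0.12 (scaling over spots valid in all 8 rats) and 0.11 (deposited log2 table). With 8 genes called lower as reported, 2 were with normexp and 0 with the methods' t-test after adjustment (7 at an unadjusted p under 0.05, and 8 by limma), for causes that were not tested. Leaving out 1 rat gave 4 to 8, and the 4 without COS replicate 3 were Dusp1, Dusp4, Spry1 and Spry4. None was called higher under any of the 22 alternatives, and the median relative to all genes ran from -0.97 to -0.64. With the replicate block, which pairs rats of one number, 8 genes were called lower, and it changed no other call of the 9 genes.

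Over all genes, 6054 lower and 1238 higher calls became 461 and 126 with normexp, 1896 and 3044 with loess, and 2226 and 3059 with quantile normalization. They became 1720 and 3352 with scaling over spots valid in all 8 rats, and 1936 and 3285 in the deposited log2 table. With the methods' t-test they were 0 and 0 after adjustment over all genes, while 6114 had an unadjusted p under 0.05 (limma 9657). Without the filter 654 were called higher. Leaving out 1 rat gave 932 (without COS replicate 3) to 7029 lower and 262 (without COS replicate 3) to 1860 (without CES replicate 2) higher. For the genes of the lists around the cascade, 36 lower and 7 higher calls became 12 and 1 with normexp, 17 and 12 with loess, 20 and 11 with quantile normalization, 16 and 11 with scaling over spots valid in all 8 rats, 18 and 12 in the deposited log2 table, 0 and 0 with the methods' t-test, and 11 to 43 and 2 to 9 with 1 rat left out, the lowest again without COS replicate 3. Scaling over spots valid in all 8 rats shifts the difference of every gene by the same amount, and took the median of all genes from -0.25 to 0.15. The causes of the other changes were not tested. Of the 27 called genes with the largest differences in these lists (up to 4 of each), 9 were called without COS replicate 3. Among 46 genes followed one by one besides the 9, 6 of 1004 values reversed. Other genes of the lists were not counted in this way. The median of the MAP kinases turned from -0.38 to 0.02 with scaling over spots valid in all 8 rats. Etv5 was 0.049 with scaling over spots valid in all 8 rats and 0.0068 in the deposited log2 table, and Mapk3 was 0.12 with loess, 0.11 with quantile normalization, 0.13 with that scaling and 0.11 in the deposited log2 table. Signal over background limits Dusp2, Dusp4 and the dimmer Spry1 probe.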
